A study of Mus musculus with 9 samples.

Results

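The primary granule genes described here were *Elane*, *Prtn3*, *Ctsg* and *Mpo*, which were taken by gene name from the deposited expression table, 4 of its 55322 genes. All 4 were matched. They were followed over 9 RNA-seq libraries, 3 each of CD11b+ B cells, CD11b- B cells and peritoneal macrophages (PMs), and in the order of the 3 CD11b+ B cell libraries. The CD11b+ and CD11b- B cells had been sorted from the BM of WT C57BL/6 mice 48 h after an intraperitoneal injection of LPS at 5 mg/kg. PMs were the CD11b+ F4/80+ cells of the peritoneal cavity of naive WT C57BL/6 mice. Before the B cells were sorted, BM cells carrying CD3, CD4, CD8, Gr-1, NK1.1 or TER119 had been depleted, a step that includes Gr-1-bearing granulocytes. No library came from B cells of untreated mice. A difference between B cells and PMs therefore joins cell type, tissue and LPS, which cannot be told apart. The labels do not say whether the 3 libraries of a group came from separate mice, and the p-values below measure only the spread between these libraries.

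Primary (azurophil) granules are the first granules that a developing neutrophil makes, and their proteins are transcribed mainly in promyelocytes of the BM. Monocyte precursors make some of them too, whereas secondary and tertiary granule proteins are made later, in myelocytes and band cells, and mature neutrophils keep the proteins after the mRNAs have been lost. *Elane* (neutrophil elastase), *Prtn3* (proteinase 3) and *Ctsg* (cathepsin G) encode serine proteases that are trimmed to their active form by cathepsin C and stored on the proteoglycan serglycin. *Mpo* encodes myeloperoxidase, a haem enzyme that makes hypochlorous acid from hydrogen peroxide. The 4 genes are thus 3 proteases and 1 peroxidase of the same granule, and not 4 proteases.

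On GRCm38, by the GENCODE M21 annotation, *Elane* (ENSMUSG00000020125) lies on chromosome 10 from 79886247 to 79888215 on the plus strand, with 5 exons. *Prtn3* (ENSMUSG00000057729) lies on the same chromosome and strand from 79874476 to 79883174 and ends 3073 bp before *Elane* starts. *Ctsg* (ENSMUSG00000040314) lies on the minus strand of chromosome 14 from 56099881 to 56102574, among mast cell protease and granzyme genes. *Mpo* (ENSMUSG00000009350) lies on the plus strand of chromosome 11 from 87793581 to 87804413. The 5′ end of the longest *Prtn3* span overlaps *Plppr3* on the opposite strand, and *Mpo* overlaps the antisense gene *Gm11505*. The sources used here do not give whether strand was used in the counting, so reads in the overlap of *Prtn3* and *Plppr3* could not be told apart, whereas *Gm11505* was at 0 FPKM in all 9 libraries.

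The stretches before the RefSeq starts of the 3 protease genes are shown because 2 of these genes are neighbours whose levels went separate ways in PMs. By GENCODE M21 the end of the *Elane* stretch, from 79886247, lies inside that gene. The *Prtn3* stretch lies wholly within the *Prtn3* span given above, and of the 3 only the *Ctsg* stretch lies outside its gene. Each sequence holds the 165 bases from 200 to 36 bases before the RefSeq start of the gene (GRCm38.p6), 5′ to 3′ on the strand of the gene, at chr10:79886112-79886276 (plus), chr10:79879467-79879631 (plus) and chr14:56102610-56102774 (minus) in this order. Capitals mark matches, on either strand, to motifs of factors known in granulocyte precursors, namely the PU.1-like AGGAAG and GAGGAA (which overlap as GAGGAAG), the Runx-like TGTGGT and the Myb-like AACNG.
Elane: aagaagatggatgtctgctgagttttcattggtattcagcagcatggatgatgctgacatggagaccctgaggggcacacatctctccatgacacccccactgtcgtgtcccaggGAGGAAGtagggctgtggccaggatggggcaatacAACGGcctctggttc
Prtn3: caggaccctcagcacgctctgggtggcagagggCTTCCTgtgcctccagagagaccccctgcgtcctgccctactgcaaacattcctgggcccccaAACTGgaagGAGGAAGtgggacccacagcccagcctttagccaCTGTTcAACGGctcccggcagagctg
Ctsg: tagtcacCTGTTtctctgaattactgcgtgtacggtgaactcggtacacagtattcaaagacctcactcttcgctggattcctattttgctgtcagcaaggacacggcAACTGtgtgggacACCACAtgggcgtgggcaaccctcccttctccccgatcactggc
*Elane* and *Prtn3* each held GAGGAAG, from base -85 and from base -95, followed by AACGG from base -50 and from base -55. By GENCODE M21 the AACGG of *Elane* lies inside the annotated gene. *Prtn3* had a further PU.1-like match on the opposite strand, read as CTTCCT from base -167. Its other Myb-like matches were AACTG from base -104 and, on the opposite strand, CTGTT from base -61. *Ctsg* held no AGGAAG or GAGGAA and had the only TGTGGT match of the 4 genes, read as ACCACA from base -79. In the window of *Mpo*, which lies in an annotated exon and is not printed, CTTCCT from base -180 and AACTG from base -165 were found. The C/EBP-like TTNNGNAA was in none of the 4 windows. Among 32851 windows of the same length before RefSeq genes, 27.8% held AGGAAG or GAGGAA, 58.9% AACNG, 9.55% TGTGGT and 26.4% TTNNGNAA, so that these matches are common letters, described here without any reading of binding.

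The libraries held between 18014658 and 35251215 reads on genes, with the shallowest among PMs. In these libraries 9 B cell markers (*Cd79a*, *Pax5* and others) summed to 4216 to 4731 FPKM in the CD11b+ libraries, 5480 to 5799 in the CD11b- libraries and 65.9 to 124 in PMs (FPKM, reads scaled by exon length and by the reads on genes of the library). The sums of 12 monocyte and macrophage markers were 159 to 343, 56.8 to 66.0 and 25585 to 63094 FPKM. The labels of the B cells and PMs were thus matched by their markers. No library was left out.

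*Elane* mRNA was read in all 3 CD11b+ B cell libraries and was close to absent from the other B cells. In CD11b+ B cells it stood at 19.5, 8.54 and 4.21 FPKM (10.8 ± 7.91, mean ± SD, n = 3) in replicates 1, 2 and 3. The CD11b- B cells had 0.0305 FPKM in replicate 1, from 1 read, and 0 in the other libraries, where 3 reads would have given 0.0874 and 0.0951 FPKM. PMs gave 0.113, 0 and 0.755 FPKM (0.289 ± 0.407, n = 3), from 2, 0 and 15 reads. The lowest CD11b+ library was above the highest library of either other group, whereas CD11b- B cells and PMs overlapped.

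*Prtn3* was highest in PMs, at 177, 215 and 121 FPKM in replicates 1, 2 and 3 (171 ± 47.4, n = 3). CD11b+ B cells had 5.19, 4.10 and 0.884 FPKM (3.39 ± 2.24, n = 3). In CD11b- B cells it was read at 0.138, 0.116 and 0.216 FPKM (0.157 ± 0.0526, n = 3), from 8, 7 and 12 reads. The 3 groups did not overlap, in the order PMs, CD11b+ B cells, CD11b- B cells.

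*Ctsg* was at the edge of detection outside of 2 CD11b+ libraries. CD11b+ B cells had 3.43, 0.555 and 0.0275 FPKM (1.34 ± 1.83, n = 3), from 104, 15 and 1 reads. No *Ctsg* read was found in any CD11b- library, which allows up to 0.0289 FPKM over the group (3 reads), and PMs had 0.215, 0 and 0.0480 FPKM, from 4, 0 and 1 reads. CD11b+ replicate 3 lay within the range of the PMs.

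*Mpo* was the 1 gene of the 4 with no read in a CD11b+ library. Replicate 1 held 8.51 FPKM from 856 reads, replicate 2 held 2.79 FPKM from 250 reads, and replicate 3 held no read, which allows up to 0.0249 FPKM (3 reads). CD11b- B cells had 0.0263, 0 and 0.00911 FPKM and PMs 0, 0.0100 and 0.0289 FPKM, from 4 and 3 reads per group. CD11b+ replicate 3 was therefore no higher than the libraries of the other groups, and the mean of the CD11b+ B cells (3.77 ± 4.34 FPKM, n = 3) came from the other libraries.

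Per exon length, *Elane* was the most abundant of the 4 mRNAs in each CD11b+ library, with 53.3, 53.4 and 82.2% of their summed FPKM in replicates 1, 2 and 3. *Mpo* followed in replicate 1 with 23.2%, whereas in replicates 2 and 3 it was *Prtn3*, with 25.7 and 17.3%. *Ctsg* was the least abundant in replicates 1 and 2. In PMs, *Prtn3* made up between 99.3 and 99.995% of the sum. Between *Prtn3* and *Mpo* in CD11b+ B cells, the order of the group means (3.39 and 3.77 FPKM) did not differ beyond their SDs.

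**Figure D1:**
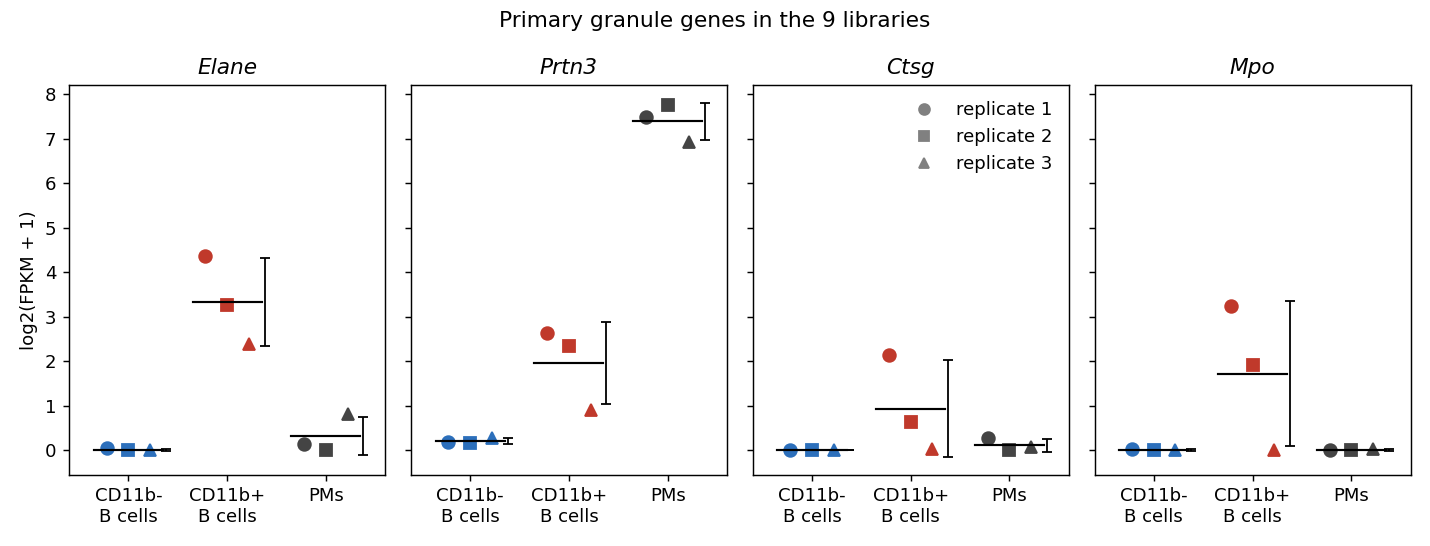
Level of each primary granule gene as log2(FPKM + 1) (y axis) in the 3 groups (x axis), with 1 point per library and replicates 1, 2 and 3 by marker shape. *Elane* was higher in every CD11b+ library (lowest 4.21 FPKM) than in any other library, and *Prtn3* was highest in PMs (lowest 121 FPKM). CD11b+ replicate 3 lay among both other groups for *Mpo*, and for *Ctsg* within the range of PMs but above the CD11b- libraries.

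The first comparison, CD11b+ against CD11b- B cells, asks how the sorted CD11b+ fraction differs from CD11b- B cells, both from BM after LPS. The labels do not say whether both fractions came from the same mice. All 4 genes had a higher mean in CD11b+ B cells, and for *Elane*, *Prtn3* and *Ctsg* the groups did not overlap, as was the case in the same direction for 8.63% of the 21778 genes tested. None of the 4 passed the test across all genes (limma on log2(FPKM + 1), adjusted p under 0.05), which 0.0689% of genes passed in this direction, and 3 of 4 had an unadjusted p under 0.05 (background 4.65%). These are bulk libraries, in which fewer cells that carry an mRNA and less mRNA per cell cannot be told apart.

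*Elane* came nearest to the threshold, with a log2 difference of 3.32 (SE 0.46, unadjusted p = 9.47e-05, limma adjusted p = 0.0764) and the 27th smallest p of 21778 genes. By pooled reads it was 1029-fold higher in CD11b+ B cells, with a 95% counting interval of 184 to 40674 that is this wide because CD11b- B cells gave 1 read. The ratio of the means was 1061. It was 628 without CD11b+ replicate 1 and 707 without CD11b- replicate 2 or 3, and without CD11b- replicate 1 no read was left in that group and no ratio could be formed. *Elane* was called by DESeq2 (adjusted p = 5.10e-11) and by edgeR with and without its filter (adjusted p = 0.0125 and 0.00687) on the recovered reads, where the calls in this direction were 1.45%, 0.269% and 0.225% of genes. Across 17 alternatives its adjusted p ran from 5.10e-11 to 0.656, the latter in a block of 2 pairs, and it was called in 7 of them.

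*Prtn3* differed by 1.76 (log2, SE 0.43, limma adjusted p = 0.350), a ratio of means of 21.6. DESeq2 called it (adjusted p = 2.51e-07), whereas edgeR did not (adjusted p = 0.0677 and 0.0621), and its adjusted p ran from 2.51e-07 to 0.788 over 17 alternatives. *Mpo* differed by 1.71 (log2, SE 0.70, limma adjusted p = 0.643), with a ratio of means of 320. That ratio was 118 without CD11b+ replicate 1, 479 without CD11b+ replicate 3, 827 without CD11b- replicate 1 and 213 without CD11b- replicate 2. It was called in none of 16 alternatives, with an adjusted p between 0.0660 and 0.831.

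*Ctsg* had the smallest log2 difference, 0.94 (SE 0.47, limma adjusted p = 0.680). Against the 3 reads that a group at 0 allows, the *Ctsg* mean of CD11b+ B cells was 46.2-fold higher, with that mean taken as given. The 95% counting interval of the ratio of pooled reads had a lower limit of 35.4. The bound from 3 reads was 10.1 without CD11b+ replicate 1 and 30.1 without CD11b- replicate 2. DESeq2 was the only tool of those run to call it (adjusted p = 0.00453, range over 15 alternatives 0.00453 to 0.831).

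The exact two-sided permutation test of mean FPKM gave p = 0.1 for *Elane*, *Prtn3* and *Ctsg*, the smallest that 3 against 3 libraries allow, and p = 0.4 for *Mpo*. Without CD11b+ replicate 3, *Elane* and *Prtn3* both passed (limma adjusted p = 0.0283 and 0.0300). For *Elane* the adjusted p ran from 0.0283 to 0.311 (limma) as each library was left out.

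Against PMs, the genes of the pair on chromosome 10 went opposite ways. *Elane* was higher in CD11b+ B cells by 3.01 (log2, SE 0.52, limma adjusted p = 0.00349), with a ratio of means of 37.2. That ratio was 22.0 without CD11b+ replicate 1, 24.8 without PM replicate 2 and 191 without PM replicate 3, the PM library with the most *Elane*. *Prtn3* was lower by 5.42 (log2, SE 0.44, limma adjusted p = 7.24e-05), and its mean in CD11b+ B cells was 1.98% of that in PMs. The 4 genes thus gave 1 call in each direction, where 21.5% of 22102 genes passed as higher and 8.78% as lower. Without overlap between CD11b+ B cells and PMs were 34.3% of genes as higher and 12.4% as lower. Both genes were called in all 16 alternatives in which they were tested.

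*Mpo* (log2 difference 1.71, SE 0.71, limma adjusted p = 0.110) and *Ctsg* (0.82, SE 0.49, limma adjusted p = 0.239) did not pass against PMs. The ratio of means of *Ctsg* was 15.3, and 3.32 without CD11b+ replicate 1, 55.7 without PM replicate 1 and 10.2 without PM replicate 2. *Mpo* was called in 3 of 15 alternatives, by DESeq2 (adjusted p = 0.0124), by edgeR without its filter (0.0213) and by limma without CD11b+ replicate 3 (0.0103), with an overall range of 0.0103 to 0.254. DESeq2 called 16% and edgeR 12.1% of genes in this direction. By pooled reads it was 274-fold higher in CD11b+ B cells (95% counting interval 93.4 to 1329), against 3 reads in PMs. The ratio of its means was 290.2, and 107 without CD11b+ replicate 1, 435 without CD11b+ replicate 3, 193 without PM replicate 1 and 753 without PM replicate 3. The exact permutation p was 0.1 for *Elane* and *Prtn3*, 0.3 for *Ctsg* and 0.4 for *Mpo*.

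CD11b- B cells and PMs shared low levels of *Elane*, *Ctsg* and *Mpo*, and differed in *Prtn3*. The latter was 1092-fold higher in PMs by the ratio of means, a log2 difference of -7.18 for CD11b- B cells minus PMs (SE 0.24, limma adjusted p = 9.15e-07), where 11% of 20985 genes were called in that direction. *Elane* differed by -0.31 (limma adjusted p = 0.301), from 1 read in CD11b- B cells and 17 in PMs. By the ratio of means *Elane* was 28.5-fold higher in PMs, 5.56-fold without PM replicate 3 and 42.8-fold without PM replicate 2. *Ctsg* and *Mpo* did not reach the mean FPKM of 0.05 needed for the test. This comparison shares the CD11b- libraries with the first and the PM libraries with the second.

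The balance of the 2 neighbouring genes was also compared within each library, where the added 1 FPKM weighs on levels under 1. *Prtn3* minus *Elane*, as log2(FPKM + 1), was -1.73, -0.90 and -1.47 in CD11b+ replicates 1, 2 and 3, and 7.32, 7.76 and 6.12 in PMs. In CD11b- B cells, where both were near 0, it was 0.14, 0.16 and 0.28. The difference between CD11b+ B cells and PMs was -8.43 (exact two-sided permutation p = 0.1, the smallest possible). *Cfd*, the next gene beyond *Elane*, encodes complement factor D and was at 0.0829 FPKM or less in every library, and *Plppr3*, on the other side of *Prtn3*, was at 4.28 to 12.6 FPKM in PMs and 1.29 to 1.90 in B cells.

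**Figure D2:**
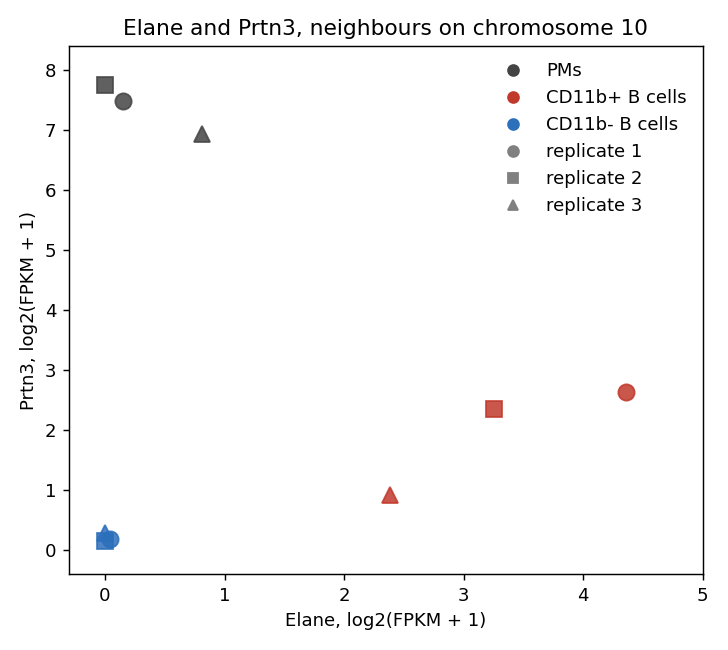
*Elane* (x axis) against *Prtn3* (y axis), both as log2(FPKM + 1), with 1 point per library, groups by colour and replicates by marker shape. CD11b+ B cells had more *Elane* than *Prtn3*, with a difference of 0.90 to 1.73, whereas in PMs *Prtn3* exceeded *Elane* by at least 6.12.

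The order of the CD11b+ B cell libraries was the same for all 4 genes, with replicate 1 highest and replicate 3 lowest. This order was also that of 20.3% of the 21778 genes tested. Replicate 1 exceeded replicate 2 by 2.29-fold for *Elane* (95% counting interval 1.96 to 2.69), 1.26-fold for *Prtn3* (1.04 to 1.53), 3.05-fold for *Mpo* (2.65 to 3.53) and 6.18-fold for *Ctsg* (3.58 to 11.4). Each interval lay above 1. Reads of amplified cDNA are not independent molecules, so these intervals cover counting error only.

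From replicate 2 to replicate 3 the levels differed by 2.03-fold for *Elane* (1.64 to 2.52) and 4.64-fold for *Prtn3* (3.41 to 6.40). For *Ctsg* the ratio was 20.2, with an interval of 3.11 to 850 because replicate 3 had 1 read, and for *Mpo* replicate 3 had none. Replicate 1 thus held 51.0% of the *Prtn3* FPKM summed over the 3 libraries, 60.5% of that of *Elane*, 75.3% of *Mpo* and 85.5% of *Ctsg*. *Elane* was the gene of the 4 with the largest share in replicate 3, against 8.69% for *Prtn3* and 0.685% for *Ctsg*.

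Most genes of the granules made later were highest in replicate 2. Of 12 secondary and tertiary granule genes, 10 had replicate 2 highest and replicate 3 lowest, an order seen in 16.8% of all genes tested, and so had 5 of 8 mature neutrophil genes. The same order was found in 4 of 8 promyelocyte and progenitor markers, in 2 of 7 primary granule partners (*Prss57* and *Cd63*) and in 3 of 8 transcription factors (*Cebpe*, *Gfi1* and *Spi1*). *Ngp* (neutrophilic granule protein) stood at 135, 340 and 24.1 FPKM in CD11b+ replicates 1, 2 and 3, *Ltf* (lactotransferrin) at 26.5, 85.4 and 3.78, and *Camp* (cathelicidin) at 31.8, 103 and 7.82. *Olfm4* was the 1 gene of that list with the order of the primary granule genes. *Elane* was accordingly 14.5, 2.51 and 17.4% of *Ngp* in these libraries, lowest where *Ngp* was highest.

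**Figure D3:**
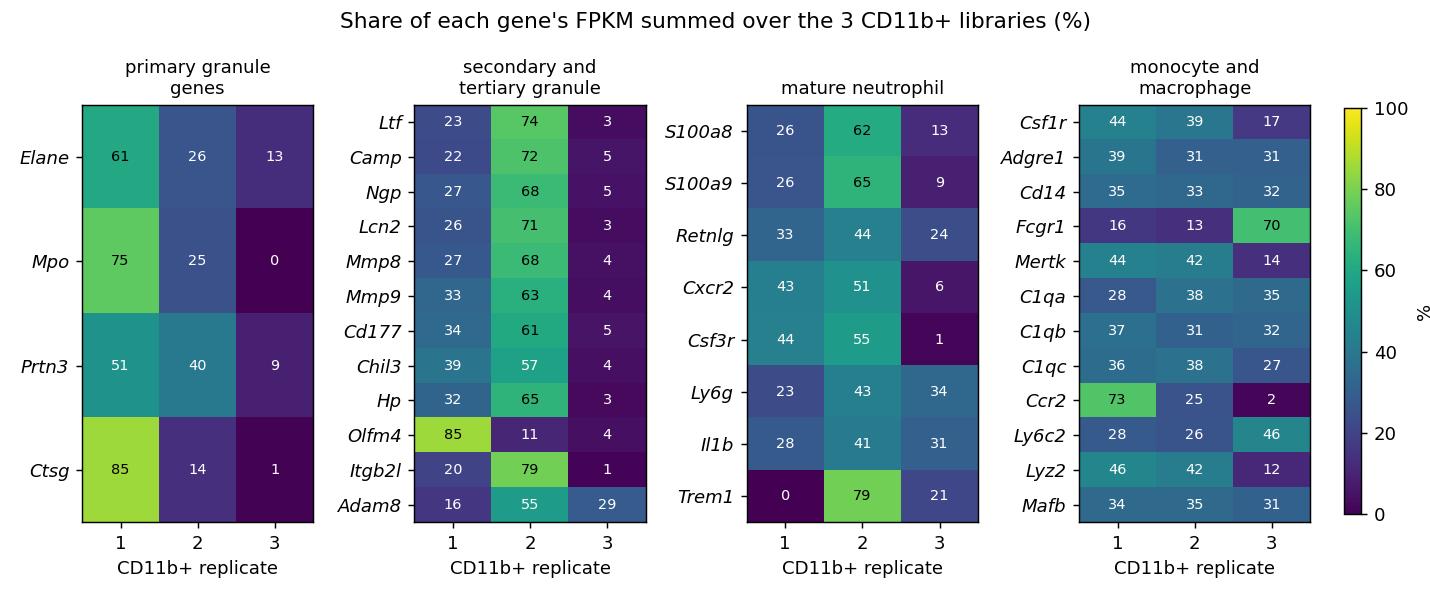
Share of each gene's FPKM, summed over the 3 CD11b+ B cell libraries, that each library held (colour and printed number, %), for the primary granule genes and lists of other genes (rows) in replicates 1, 2 and 3 (columns). Replicate 1 held 51.0 to 85.5% for the primary granule genes, whereas for 10 of the 12 secondary and tertiary granule genes replicate 2 was highest and replicate 3 lowest.

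Markers of other myeloid cells were also read at higher levels in CD11b+ than in CD11b- libraries. The 12 secondary and tertiary granule genes summed to 278, 686 and 45.8 FPKM in CD11b+ replicates 1, 2 and 3, against 1.07 to 2.07 in the CD11b- libraries and 190 to 232 in PMs. All 12 had a higher mean than in CD11b- B cells (median log2 difference 2.71), with 0 past the limma test and 9 at an unadjusted p under 0.05. DESeq2 called 10 of the 12 higher, and edgeR 8 of 12 without its filter and 7 of the 10 left with it. Of all genes, DESeq2 called 1.45% higher, edgeR 0.225% without its filter and 0.269% with it, and limma 0.0689%. An unadjusted p under 0.05 in this direction was found in 4.65% of all genes (limma). The 8 mature neutrophil genes summed to 419, 999 and 176 FPKM, against 1.63 to 2.16 in the CD11b- libraries and 54.6 to 84.8 in PMs. Of these genes 7 had a higher mean than in CD11b- B cells and 1, *Trem1*, a lower one (log2 difference -0.07). In limma 7 had an unadjusted p under 0.05, and 3 (*S100a8*, *S100a9* and *Retnlg*) passed (limma adjusted p = 0.00566, 0.0137 and 0.00560). The means of all 12 monocyte and macrophage markers were above those of CD11b- B cells, with sums of 343, 317 and 159 FPKM in CD11b+ replicates 1, 2 and 3, and 6 of them had the order of the primary granule genes. None of the 12 passed in limma, where 10 had an unadjusted p under 0.05, whereas DESeq2 called 11 and edgeR 2 of them higher. A higher mean was found for 11992 of all 21778 genes tested. All 8 erythroid genes had a higher mean too, with sums of 39.5 to 49.9 against 2.22 to 25.7 FPKM. Of the 9 B cell markers 7 had a lower mean in the CD11b+ group. No T and NK cell, basophil, mast cell and eosinophil, or stem and progenitor gene that was tested passed in limma (6 of 8, 8 of 8 and 3 of 6 tested, list medians 0.14, 0.18 and -0.00). Of each list 1 gene was higher at an unadjusted p under 0.05, and DESeq2 called 2 T and NK cell genes higher and 1 stem and progenitor gene lower. *Prg2*, an eosinophil granule protein gene, had the values 3.94, 3.60 and 13.7 FPKM in CD11b+ and 0.286, 0 and 1.97 in CD11b- libraries (log2 difference 2.15, SE 0.56, limma adjusted p = 0.387), with replicate 3 the highest. In its list of 8, 6 genes had a higher mean in CD11b+ B cells, whereas *Il5ra* (12.3 against 13.8 FPKM) and *Ccr3* (0.0511 against 0.0817) had a lower one. *Epx*, a relative of *Mpo* in eosinophils, also had a lower mean (0.0128 against 0.0489 FPKM). The part of other cells in the levels of *Elane*, *Prtn3*, *Ctsg* and *Mpo* was not tested.

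Of 8 promyelocyte and progenitor markers, 5 were lowest in CD11b+ replicate 3 among the CD11b+ libraries, and *Ms4a3* and *Fcnb*, like *Mpo*, were at 0 there. Replicate 3 was lowest for 8080 of all 21778 genes tested. The order of the primary granule genes was seen in 1 of the 8 markers (*Cd33*), and that of the later granules in 4. *Ms4a3*, a marker of granulocyte and monocyte precursors, was at 3.09, 3.45 and 0 FPKM in replicates 1, 2 and 3, and *Fcnb* (ficolin B) at 3.31, 7.42 and 0. *Flt3*, a receptor of earlier progenitors, was at 1.58, 0.767 and 1.56 FPKM and *Clec12a*, a myeloid lectin receptor, at 4.63, 5.55 and 3.64 in these libraries. *Kit* and *Cd34*, which mark earlier progenitors, were at 0.0314 FPKM or less in each CD11b+ library. Of the 8 markers 7 had a higher mean in the CD11b+ group, with a median log2 difference of 0.52. None of the 7 tested passed in limma, where 4 had an unadjusted p under 0.05, against 4.65% of all genes. DESeq2 called 1 of them higher, against 1.45% of all genes. The median log2 difference of all genes tested was 0.03.

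Among 8 transcription factors known to act on these genes, none passed between the B cell groups in limma (1, *Irf8*, lower at an unadjusted p under 0.05), edgeR or DESeq2, where 3 had a higher mean in CD11b+ B cells (median log2 difference -0.23). *Cebpe*, which drives the later steps of granulocyte development, was at 0.466, 0.523 and 0 FPKM in CD11b+ B cells, again with no read in replicate 3. *Spi1* (PU.1) ranged from 32.7 to 42.1 FPKM in CD11b+ and from 40.2 to 51.1 in CD11b- libraries. Against PMs, *Gfi1*, *Myb* and *Irf8* were higher and *Cebpa*, *Cebpb* and *Spi1* lower in CD11b+ B cells (limma adjusted p under 0.05 for each), 3 of 8 in each direction against 21.5% and 8.78% of all genes. *Cebpa*, needed for granulocyte and monocyte commitment, was at 0.0517 to 0.261 FPKM in CD11b+ B cells and 15.1 to 19.6 in PMs.

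The partners that trim and store the proteases, *Ctsc* and *Srgn*, were read in both B cell groups. *Ctsc* (cathepsin C) was at 86.4, 73.0 and 38.3 FPKM in CD11b+ replicates 1, 2 and 3 and 92.0, 70.8 and 53.3 in CD11b- B cells (log2 difference -0.17, SE 0.32, limma adjusted p = 0.858). *Srgn* (serglycin) ranged from 124 to 162 FPKM in CD11b+ libraries and from 108 to 142 in CD11b- libraries. *Prss57*, another serine protease of these granules, was at 0.132, 0.269 and 0.00998 FPKM in CD11b+ B cells and had no read in CD11b- B cells. *Cd63*, a membrane protein of these granules, was at 2.05, 2.19 and 1.37 FPKM in CD11b+ libraries and 0.179, 0.0700 and 0.373 in CD11b- libraries, without overlap (log2 difference 1.25, SE 0.23, limma adjusted p = 0.168). Of 7 partners, 6 were tested between the B cell groups and none passed in limma (median log2 difference 0.16, 1 at an unadjusted p under 0.05). DESeq2 called 1 of them higher, against 1.45% of all genes. Of the 6 tested against PMs, *Srgn*, *Cd63* and *Gusb* were lower in CD11b+ B cells (limma adjusted p under 0.05 for each) and none was called higher. In that comparison 8.78% of all genes were called lower and 21.5% higher.

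*Serpinb1a*, an inhibitor of elastase, proteinase 3 and cathepsin G, was at 138 to 172 FPKM in CD11b+ B cells, below each CD11b- library (192 to 200), a log2 difference of -0.32 that did not pass (SE 0.14, limma adjusted p = 0.654). *Slpi*, a secreted inhibitor of elastase and cathepsin G, was at 13.8 to 19.2 FPKM in CD11b+ B cells and 2344 to 3211 in PMs (log2 difference -7.27, SE 0.22, limma adjusted p = 6.75e-07). Of the 6 inhibitors, 5 were tested between the B cell groups and none passed in limma, edgeR or DESeq2 (median log2 difference 0.10). In limma 2 (*Slpi* and *Serpina3g*) were higher at an unadjusted p under 0.05, against 4.65% of all genes. Against PMs *Serpina3g* was higher and *Slpi* and *Serpinb6a* lower, where 21.5% of all genes were called higher and 8.78% lower.

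Relatives of the 4 genes, among them genes of mast cells, basophils, eosinophils and lymphocytes, summed to 1.11, 2.39 and 2.57 FPKM in CD11b+ replicates 1, 2 and 3. In the CD11b- libraries their sum was 0.251 FPKM or less. Of 13 such genes 4 reached the level needed for the test between the B cell groups and none of these passed in limma (0 at an unadjusted p under 0.05), edgeR or DESeq2, *Gzmc* and *Mcpt1* had no read in any library, and the highest single CD11b+ values were 2.37 FPKM for *Prss34* in replicate 3 and 1.06 for *Gzma* in replicate 2. Near *Ctsg*, *Mcpt8* was at 0.443, 0.727 and 0 FPKM in CD11b+ B cells, and *Gzme* and *Gzmd* were at 0 throughout. *Lpo*, the peroxidase gene next to *Mpo*, was at 0.124 FPKM or less in all libraries. *Cma1* and *Tpsb2*, of mast cells, were higher in PMs than in CD11b+ B cells (limma adjusted p = 0.0352 and 0.00837). They were 2 of the 6 relatives tested there, where 8.78% of all genes were called in that direction.

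**Figure D4:**
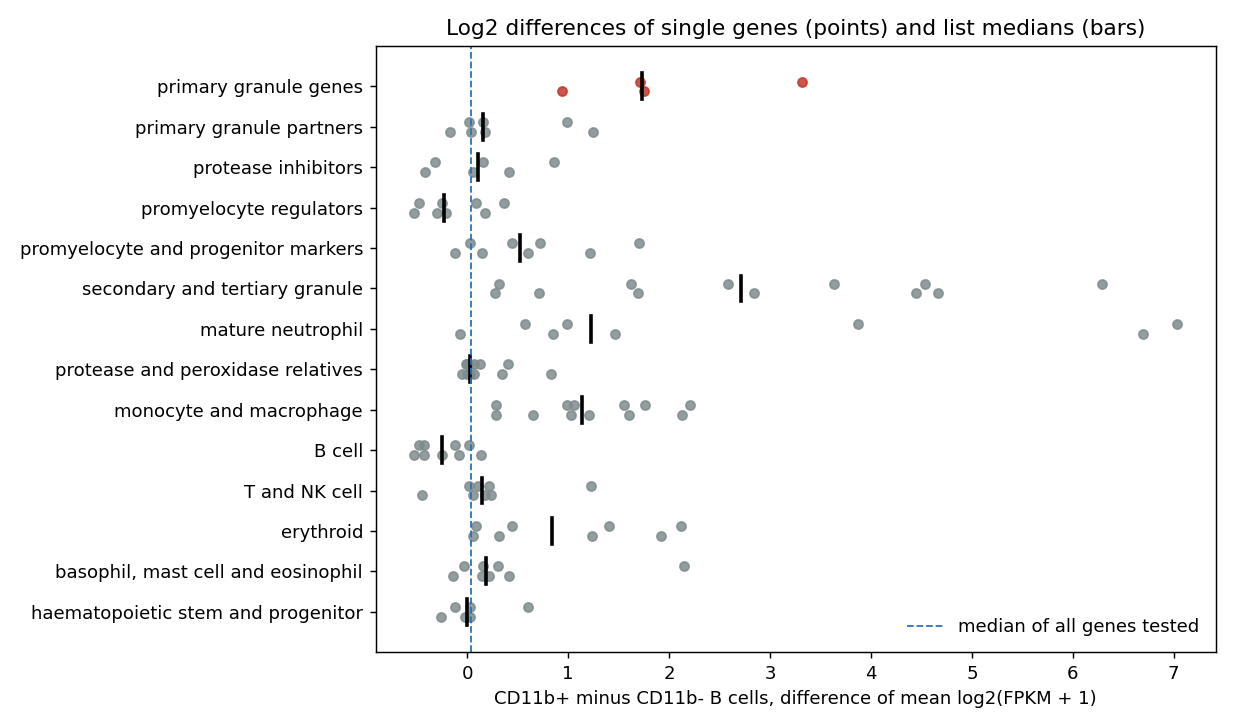
Difference of mean log2(FPKM + 1), CD11b+ minus CD11b- B cells (x axis), for each gene (points) of the primary granule genes and the other lists (rows), with the list median as a bar and the median of all genes tested as a dashed line. The primary granule genes lay between 0.94 and 3.32, below the median of 2.71 for secondary and tertiary granule genes except for *Elane*. On this scale the differences of genes at low levels are understated, so that this order need not be that of the fold changes.

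Over the 9 libraries, *Elane*, *Ctsg* and *Mpo* ran together and *Prtn3* apart from them. Pearson's r of log2(FPKM + 1) was 0.82 for *Elane* and *Ctsg*, 0.88 for *Elane* and *Mpo* and 0.95 for *Ctsg* and *Mpo*, whereas *Prtn3* had -0.16, -0.02 and -0.11 with *Elane*, *Ctsg* and *Mpo*. The libraries form 3 groups and are no independent points, so that these values are a description. By the mean r with all 4 genes among 16516 genes of at least 1 FPKM in any library, the most alike were *Il4* (0.71), *Anxa8* (0.68), *Mir6989* (0.68), *U6* and *Gm43432* (0.68), *Gm5340*, *Gm44508* and *7SK* (0.67), *Ly6i* and *Fndc7* (0.66). The highest level among them was 3.48 FPKM (*Ly6i* in CD11b+ replicate 1), and most were near 0 FPKM outside CD11b+ replicates 1 and 2. Their r with *Prtn3* ran from -0.12 (*7SK*) to 0.21 (*Il4*), so that these means rest on *Elane*, *Ctsg* and *Mpo*. By the mean r without *Prtn3* the highest was *Mir6989* (0.94), and *Il4*, *Gm44508*, *Ly6i* and *Fndc7* were not among the 10 most alike.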

How the data were processed

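RNA of 9 libraries (3 per group) had been made into SMART-seq HT cDNA libraries. Per the labels, the authors trimmed the reads (Trim Galore 0.4.4, Trimmomatic 0.36 and cutadapt 1.16 are named), mapped them with STAR 2.7.2b and counted them with featureCounts 1.6.1, and they used DESeq2 1.20.0. The FPKM values that the authors deposited are reads divided by exon length and by the reads on genes of the library. The authors' second table, a normalized signal for 11063 genes selected at a p of 0.05, holds all 4 genes and gave the same whole reads. The paper names DESeq2 for differential expression, but the test and the groups behind this selection are not stated. The submitters' processing notes name GRCm38 and GRCm39. Positions in the tables differed from GENCODE M21 for most genes (1462 of 52046 had the same start), so GENCODE M21 positions are given by identifier. RefSeq promoter windows matched all 4 genes.

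Whole reads were recovered from FPKM for 100% of values (tolerance 0.05). The main test was limma 3.58.1 (R 4.3.3; lmFit, eBayes with trend, two-sided) on log2(FPKM + 1), 6 libraries per comparison, a minimum mean FPKM of 0.05, Benjamini-Hochberg adjustment over all of them and a threshold of 0.05. A fold change on this scale understates that of low genes. Single genes were also given an exact permutation test (scipy 1.17.1), whose smallest p is 0.1. Count tests on recovered reads (edgeR 4.0.16, DESeq2 1.42.0, at least 10 reads or filterByExpr), another pseudocount, filter and scaling, a replicate block and each library left out were alternatives. Intervals are exact, at 95%. All 3 tests were tried on simulated data. The genes and the lists they are compared with were chosen with earlier results of these data known. All 4 genes are named, with any gene of the lists and the 10 genes of most similar pattern. 1 marker of the B cell list is not reported here.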

Additional observations from a re-analysis of the deposited data

How the results depend on the processing

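Of the 4 primary granule genes, 0 passed between CD11b+ and CD11b- B cells in limma as reported. The count was 1 (*Elane*) with a pseudocount of 0.1, a mean FPKM of at least 1, all 9 libraries in 1 fit, and edgeR with or without filterByExpr (which left 2 genes to test), and 3 with DESeq2. In the same direction limma called 34 of all 21778 genes with a pseudocount of 0.1, and 31 of 11986 with a mean FPKM of at least 1. DESeq2 called 1.45% of all genes higher, and edgeR 0.269% with and 0.225% without filterByExpr. Leaving out each library in turn gave 0 to 2, the latter without CD11b+ replicate 3. Against PMs the count was 2 for CD11b+ B cells, 3 (with *Mpo*) by DESeq2 and by edgeR without filterByExpr, and 2 to 3 when libraries were left out (3 without CD11b+ replicate 3). Limma as reported called 21.5% of all genes higher and 8.78% lower there, and the higher calls were 16% in DESeq2 and 12.1% in edgeR without filterByExpr. For CD11b- B cells against PMs the count was 1 in every alternative run, where limma as reported called 11% of all genes lower. No direction of the 4 genes was reversed where they were tested. Over all genes, the calls between B cell groups were 15 higher and 0 lower of 21778 in limma, and 328 higher and 64 lower of 22684 in DESeq2.

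Median-ratio scaling moved the share of calls with the CD11b+ B cells above PMs from 71.0 to 53.3%, and for CD11b- B cells from 70.1 to 52.5%, and the median log2 difference of all genes from 0.25 to 0.12 and from 0.24 to 0.09. *Elane* and *Prtn3* were called in the same directions under it.

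Libraries with the same replicate number deviated together in 2 of 3 pairs between the B cell groups (r = 0.287, -0.017 and 0.209), short of the 3 needed to treat the numbers as pairs. The replicate block gave 0, 2 and 1 genes called in the 3 comparisons. A block by the number in the description, added after seeing the data, left 2 pairs between the B cell groups and gave 0, with an adjusted p of 0.656 for each of the 4 genes (limma), too small a design to say anything about stability.

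Depth limits *Ctsg*, *Mpo* and *Elane* outside the CD11b+ libraries. Ratios against groups at 1 to 5 reads have wide counting intervals, and against 0 reads only a bound can be given.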

Other observations

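The genes closest to *Prtn3* over the 9 libraries by Pearson's r of log2(FPKM + 1), looked up after its values were seen, were *Pla2g7* and *Fcgr4* (both r = 0.996), *Ifitm3*, *Lgals3* and *Ear2* (r = 0.995 for each). *Ear2*, an eosinophil-associated ribonuclease gene, was at 35.7, 41.3 and 20.1 FPKM in PMs, 2.56, 2.66 and 0.0789 in CD11b+ B cells and 0 in CD11b- B cells. *Pla2g7*, which encodes a phospholipase that acts on platelet-activating factor, was at 112 to 134 FPKM in PMs and 0.879 to 3.65 in CD11b+ B cells. For both, as for *Prtn3*, replicate 3 was the lowest of the CD11b+ libraries. A gene that is much higher in the 3 PM libraries than in B cells has a high r here, and these are descriptions with no test.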
